A study of Mus musculus with 6 samples.

Results

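The constitutive proteasome subunits were read as the probe sets annotated to exactly 1 gene named Psma, Psmb, Psmc or Psmd with a number, leaving out the immunoproteasome genes Psmb8, Psmb9 and Psmb10. This gave 74 probe sets of 36 genes among the 45101 probe sets of the array, which read 18193 genes by a single symbol. The core particle holds 16 of these genes, the regulatory particle 17, and 3 more, Psmd5, Psmd9 and Psmd10, encode chaperones that help assemble the base of the regulatory particle. There were 3 liver samples of S1P lyase knockout mice (KO) and 3 of wild-type mice (WT), each read on its own Affymetrix array. Sgpl1 encodes S1P lyase, which breaks down sphingosine 1-phosphate, a signalling lipid. All mice had a mixed C57BL6 and 129sv background, none was treated, and the labels give no age, sex or batch. The comparison asks how liver transcripts differ when the lyase is missing.

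The proteasome is the protease that degrades ubiquitin-tagged proteins in the cytosol and nucleus. Its core particle is a barrel of stacked rings: outer rings of alpha subunits, which gate the entrance, and inner rings of beta subunits, of which Psmb5, Psmb6 and Psmb7 carry the active sites. A regulatory particle caps the barrel. Its base holds a ring of ATPases (Psmc genes) that unfold substrates, and its lid removes the ubiquitin chain. Liver cells, like other cells, make these subunits constitutively, and the transcription factor NRF1 (Nfe2l1) is known to raise many subunit genes together when proteasome activity is short, through antioxidant response elements (ARE) in their promoters.

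Promoter sequences, from 250 bases before to 50 after the start site listed for each promoter, were held by RefSeq's table of assembly GRCm38.p6 for 29 of the 36 genes. Below, the start means this listed site. It can differ from the annotated start of the gene, which for Psmb6 is 70525324 and lies before the ARE core printed here. The ARE core TGACNNNGC was found on either strand in 5 of these genes, Psmb5, Psmb6, Psmc6, Psmd9 and Psmd12. It was in 16.1% of the 31 promoters of members and in 12.4% of all 32851 promoters. The letters CCAAT, on either strand, were in 38.7% of members' promoters and 37.4% of all. The 3 promoters printed here hold no CCAAT, and are shown because their ARE core lies within 50 bases of the start and because they belong to subunits described below, 2 of the catalytic ones and the assembly chaperone with the highest difference. Capitals mark the ARE core, whose first base lies at -47 in Psmb5 (chr14:54617946-54618245, minus strand), -9 in Psmb6 (chr11:70525107-70525406, plus strand) and -31 in Psmd9 (chr5:123227940-123228239, plus strand), counted from the start. A match of letters is a description of the sequence and not a binding site.
Psmb5: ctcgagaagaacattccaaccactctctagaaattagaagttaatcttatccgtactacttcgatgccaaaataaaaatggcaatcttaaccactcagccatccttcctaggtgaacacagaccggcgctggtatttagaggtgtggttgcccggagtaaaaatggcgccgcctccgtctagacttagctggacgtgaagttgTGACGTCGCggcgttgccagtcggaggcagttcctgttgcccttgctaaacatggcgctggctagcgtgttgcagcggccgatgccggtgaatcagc
Psmb6: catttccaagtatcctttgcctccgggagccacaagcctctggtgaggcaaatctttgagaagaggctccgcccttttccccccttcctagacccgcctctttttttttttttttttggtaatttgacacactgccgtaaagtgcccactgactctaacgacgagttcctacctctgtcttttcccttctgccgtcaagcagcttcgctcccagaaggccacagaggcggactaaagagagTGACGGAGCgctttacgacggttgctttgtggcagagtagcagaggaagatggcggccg
Psmd9: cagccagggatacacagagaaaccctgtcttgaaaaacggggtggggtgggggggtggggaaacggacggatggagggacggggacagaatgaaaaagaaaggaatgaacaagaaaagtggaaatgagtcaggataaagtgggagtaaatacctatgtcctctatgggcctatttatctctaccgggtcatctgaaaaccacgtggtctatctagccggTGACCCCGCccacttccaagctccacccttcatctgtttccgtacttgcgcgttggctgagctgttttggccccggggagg

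Some values of the whole series bear on small differences. Sgpl1 read 2.46, 2.99 and 2.88 log2 in the KO livers, against 6.65, 6.90 and 6.71 in the WT livers, so the targeted gene followed the labels. The 3′ minus 5′ signal is a measure of transcript integrity. For Actb it was 1.45, 1.42 and 1.12 log2 in KO and 0.97, 0.81 and 0.87 in WT. For Gapdh it was 0.54, 0.57 and 0.25 in KO and 0.07, -0.06 and -0.05 in WT. For Pcx it was 3.40, 3.19 and 2.77 in KO and 2.31, 1.97 and 2.06 in WT. Each gave p = 0.1 in a two-sided exact permutation test, which cannot go lower with 3 arrays a genotype. The 24 poly-A control probe sets, which read bacterial RNA added before labelling, averaged 8.78 log2 in KO and 8.03 in WT. Of 13 tested neutrophil markers 12 rose and none fell, and their summed linear signal was 22584 to 25448 in KO against 619 to 876 in WT. In bulk tissue, fewer cells of a type and less RNA per cell cannot be told apart. Of 6 B and plasma cell markers 5 rose. Of 6 T and NK cell markers 2 rose and none fell, but the other 4 lay below 0, with a median of -0.08 log2 over the 6. Of 13 macrophage and Kupffer cell markers 4 rose and 4 fell. For comparison, 10.3% of all genes tested rose and 7.85% fell. Of 11 hepatocyte markers 4 fell and none rose. Their summed signal was 100052 to 106316 in KO and 110371 to 112938 in WT, and all 11 were above the limit for dim probe sets in both genotypes. The part of these differences in the proteasome values was not tested.

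Proteasome subunit transcripts differed little between KO and WT livers. Of the 36 genes, 34 were tested, each read by its brightest probe set. Psmb7 alone passed the test, lower in KO, which makes 2.94% of the 34. Over all 13370 genes tested, 18.2% were called in either direction, 10.3% higher and 7.85% lower in KO (limma, Benjamini-Hochberg adjusted p under 0.05 over 27022 probe sets). None of the 34 was called higher, although at an unadjusted p under 0.05 there were 4 higher and 4 lower. These 8 of 34 genes compare with 34.1% of all genes tested at that threshold. The median difference over the 34 genes was -0.08 log2, against -0.05 over all genes tested. The median size of the difference, whatever its sign, was 0.20 log2 for the subunits and 0.23 for all genes.

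The 95% intervals give the sizes of change left possible for the brightest probe set on the deposited array scale. All 34 intervals, unadjusted for the number of genes, lay within 1 log2 unit of 0, from -0.85 at the low end (Psmb7) to 0.87 at the high end (Psmd9). A change of 1.83-fold upwards or 1.80-fold downwards thus bounds the widest of them on this scale. On another scale a difference can lie beyond these bounds: with arrays centred on poly-A controls, Psmb7 was at -1.28 log2. In 9 of the 34 genes, 26.5%, the KO and WT values did not overlap, 4 with all KO arrays above WT and 5 below. Among all genes tested 40.8% did not overlap, 19% with KO above and 21.8% with KO below.

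**Figure D1:**
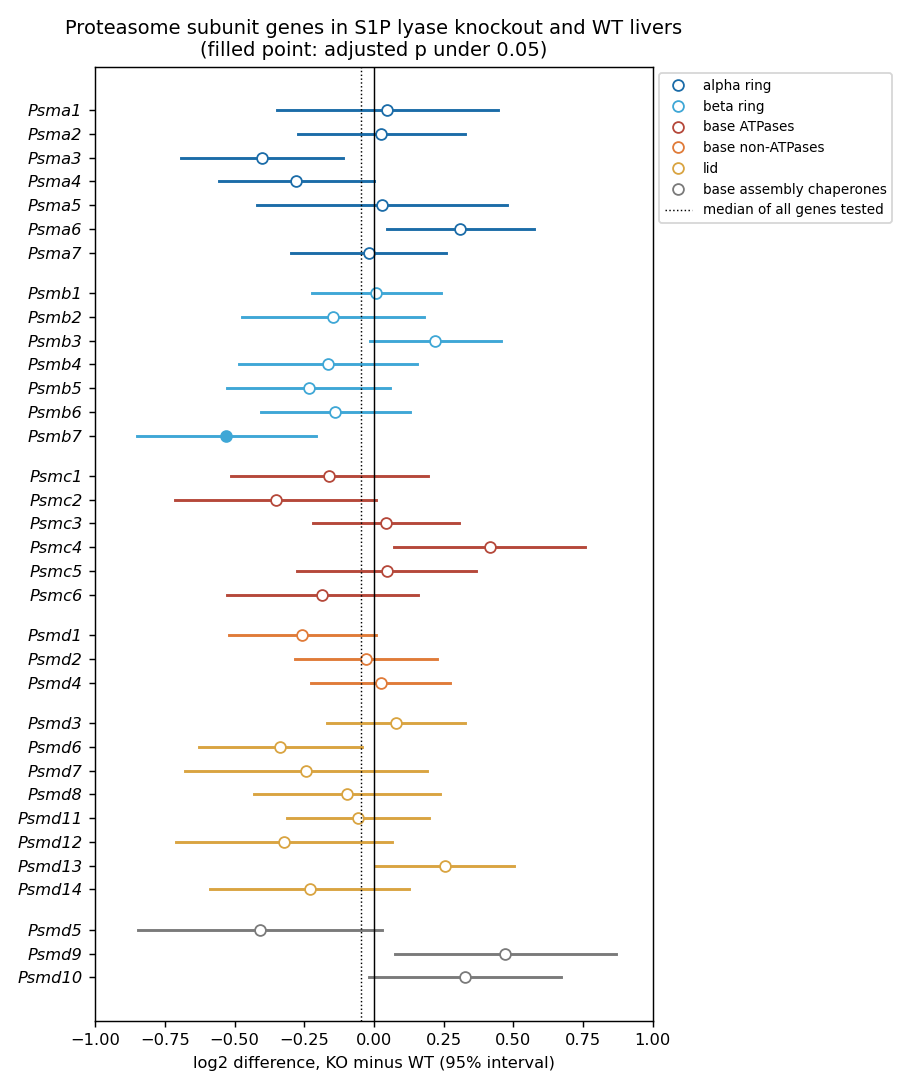
Log2 difference, KO minus WT, of the 34 tested subunit genes by role, as points with 95% intervals from limma (3 arrays per genotype); the filled point passed the test and the dotted line is the median of all genes tested. Only Psmb7 is filled, and every interval lies between -1 and 1.

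The core and the regulatory particle gave much the same picture. In the core particle, 14 of 16 genes were tested, 1 fell, none rose, and the median difference was -0.08 log2. In the regulatory particle all 17 genes were tested, none passed, and the median was -0.10. Sem1, a lid subunit outside the naming rule, is not among them. It rose and is described below with other proteasome-bound proteins. At an unadjusted p under 0.05 there were 1 higher and 3 lower in the core, and 2 higher and 1 lower in the regulatory particle, where 34.1% of all genes tested passed that threshold. The mean core level minus the mean regulatory level within an array, which no rescaling of arrays changes, was 0.82, 0.90 and 0.86 log2 in KO and 0.83, 0.98 and 0.80 in WT. The values of the genotypes overlapped, with means of 0.86 ± 0.04 in KO and 0.87 ± 0.10 in WT (SD, n = 3 each). By mean level among all genes tested, the tested core genes ranged from the 91.8th to the 97.2th percentile, and those of the regulatory particle from the 80.6th to the 95.4th. The assembly chaperones Psmd5, Psmd9 and Psmd10 were dimmer, from the 47.5th to the 79.8th percentile.

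The alpha ring was represented by 7 tested genes, none of which passed, with a median difference of 0.03 log2. Psma3 read 10.01, 10.10 and 10.33 log2 in KO, against 10.39, 10.69 and 10.57 in WT. All KO values were below all WT values, and the difference of -0.40 (SE 0.13) missed the threshold (limma adjusted p = 0.0614). Its dimmer probe set differed by 0.31, and with the mean of both the difference was -0.05. Psma6, in the same ring, went the other way, at 10.31, 10.28 and 10.43 in KO and 9.87, 10.03 and 10.18 in WT (0.31, SE 0.11, adjusted p = 0.0971). Its other 2 tested probe sets differed by -0.06 and -0.0047, and with the mean of the probe sets the difference was 0.08. Psma4 differed by -0.28 (adjusted p = 0.146), also without overlap. The remaining tested members Psma1, Psma2, Psma5 and Psma7 lay between -0.02 and 0.05. Psma5 had the largest adjusted p of the ring, 0.928, with an interval of -0.42 to 0.48. Psma8, the alpha subunit known from testis, was too dim to be tested, at 2.99 to 3.53 log2 in KO and 2.92 to 3.13 in WT.

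In the beta ring 1 of 7 tested genes fell and none rose (median -0.15 log2). Psmb7, which carries the trypsin-like activity, read 9.95, 10.04 and 10.37 log2 in KO, against 10.48, 10.74 and 10.73 in WT. The KO values were all below the WT values, and Psmb7 fell by 0.53 log2 (SE 0.14), 1.44-fold lower in KO (limma adjusted p = 0.035). The call rested on few arrays: it was lost without KO replicate 1 (adjusted p = 0.117) or 2 (0.118), without WT replicate 2 (0.098) or 3 (0.075), and with arrays centred on their medians (0.0512) or on hepatocyte markers (0.0705). The difference lay between -1.28 and -0.43 in the 16 alternative settings. Most of these settings could not turn its sign. Filters, the trend option, the genes fitted and the mean of probe sets leave its value unchanged, as Psmb7 has 1 probe set. Leaving out 1 array cannot turn it, because the KO and WT values do not overlap.

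The other catalytic subunits did not pass. Psmb5, with the chymotrypsin-like activity and the ARE core at -47, read 8.93, 8.99 and 9.20 log2 in KO, against 9.14, 9.24 and 9.43 in WT. The difference was -0.23 (SE 0.13, limma adjusted p = 0.234) and the groups overlapped. Psmb6, with the caspase-like activity and the ARE core at -9, read 8.72, 8.88 and 8.97 in KO and 8.95, 8.94 and 9.10 in WT, a difference of -0.14 (SE 0.12, adjusted p = 0.432). Of the beta subunits without an active site, Psmb1 had the smallest difference of all tested members, at 9.03, 9.09 and 9.03 in KO and 9.02, 9.09 and 9.02 in WT (0.01, SE 0.10, adjusted p = 0.959). Psmb2 and Psmb4 differed by -0.15 and -0.17. Psmb3 differed by 0.22 (adjusted p = 0.169), with all KO values above WT on its brightest probe set, and by -0.08 with the mean of its probe sets. Psmb11, the subunit of thymus, was not tested, with means below the 3.58 log2 limit for dim probe sets.

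The 3 catalytic subunits have counterparts that replace them in the immunoproteasome, the form that interferon induces and that shapes peptides for antigen presentation. Psmb8, the counterpart of Psmb5, read 8.54, 8.87 and 9.03 log2 in KO and 7.27, 8.69 and 7.01 in WT. WT replicate 2 lay among the KO arrays, and likewise for Psmb10, at 8.98, 9.21 and 9.64 in KO and 7.91, 9.27 and 7.89 in WT. For Psmb9, at 7.92, 8.22 and 8.20 in KO and 6.52, 8.48 and 6.13 in WT, it lay above them. Differences of 0.92 to 1.15 log2 did not pass (limma adjusted p = 0.0764 to 0.187). The WT SD was 0.79 to 1.26 for these genes, against 0.09 to 0.15 for Psmb5, Psmb6 and Psmb7, which in WT replicate 2 lay close to the other WT arrays.

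The change within each pair was read inside the array, so that array scale drops out. Psmb7 minus Psmb10 was 0.96, 0.83 and 0.73 log2 in KO, against 2.57, 1.46 and 2.84 in WT, and Psmb5 minus Psmb8 was 0.39, 0.12 and 0.17 against 1.87, 0.55 and 2.42. In both pairs all KO values were below all WT values, by 1.45 and 1.39 on average. The exact permutation test, two-sided, gave p = 0.1 for each, adjusted 0.15 over 3 pairs. Psmb7 and Psmb5 themselves differed by -0.53 and -0.23. The larger part thus came from Psmb10 and Psmb8, which overlapped between genotypes and did not pass. Values of 40.8% of single genes did not overlap, and no such share was computed for pairs of genes. Psmb6 minus Psmb9 overlapped, at 0.81, 0.66 and 0.77 in KO and 2.43, 0.46 and 2.97 in WT (exact p = 0.4). The size of such a value depends on the probes, so only its difference between genotypes can be read.

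**Figure D2:**
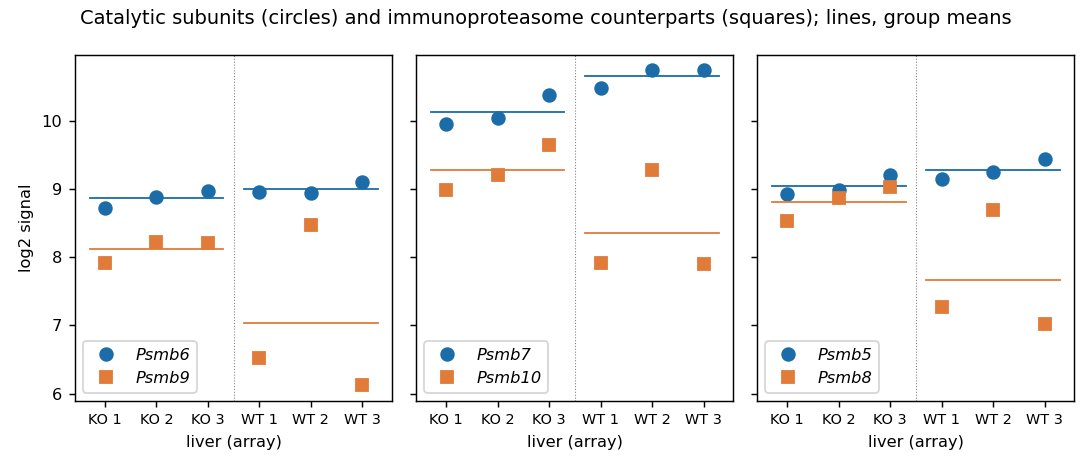
Log2 signal in each of the 6 livers, KO left of WT, for the catalytic subunits Psmb6, Psmb7 and Psmb5 (circles) and the immunoproteasome subunits Psmb9, Psmb10 and Psmb8 (squares), with lines at group means. The squares of WT 2 lie among the KO values for Psmb8 and Psmb10 and above them for Psmb9, while the circles of WT 2 lie beside those of the other WT livers.

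None of the 6 ATPases of the base passed (median -0.06 log2). Psmc4 read 8.76, 8.57 and 8.99 log2 in KO, against 8.18, 8.34 and 8.54 in WT, with no overlap (0.41, SE 0.15, limma adjusted p = 0.0911). Psmc2 pointed the other way, at 9.03, 9.21 and 9.48 in KO and 9.37, 9.62 and 9.79 in WT (-0.35, adjusted p = 0.154). The other probe set of Psmc4 differed by -0.16, the sign of Psmc2, and with the mean of both Psmc4 was at 0.12. The other tested probe set of Psmc2 differed by -0.26. Psmc5 had the largest adjusted p of the ring, 0.841, with a difference of 0.05. Psmc1, Psmc3 and Psmc6 lay between -0.18 and 0.04.

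The base also holds Psmd1 and Psmd2, large scaffold subunits, and the ubiquitin receptor Psmd4. Psmd1 read 8.55, 8.58 and 8.78 log2 in KO, against 8.89, 8.83 and 8.96 in WT, a difference of -0.26 without overlap that did not pass (limma adjusted p = 0.155). Psmd2 differed by -0.03 and Psmd4 by 0.02, with intervals of -0.28 to 0.23 and -0.23 to 0.27.

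In the lid, whose subunit Psmd14 is the enzyme that cuts off ubiquitin chains, none of the 8 Psmd genes passed (median -0.16 log2). Psmd14 itself differed by -0.23 (SE 0.16, limma adjusted p = 0.327), and its partner Psmd7 by -0.24. Psmd6 read 8.53, 8.44 and 8.75 in KO and 8.86, 8.82 and 9.04 in WT (-0.34, adjusted p = 0.103). Psmd13 read 8.18, 8.25 and 8.24 in KO and 7.94, 7.91 and 8.05 in WT (0.26, adjusted p = 0.136). Both were without overlap, in opposite directions. A second probe set of Psmd13 read 7.39, 7.49 and 7.39 in KO and 7.05, 7.06 and 7.23 in WT, also above WT, and its other 2 tested probe sets differed by -0.22 and -0.26. When its probe sets were averaged Psmd13 was at 0.02 and Psmd6, whose other probe set differed by 0.01, at -0.16. Psmd12 lay at -0.32 and Psmd3, Psmd8 and Psmd11 between -0.10 and 0.08.

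Of the assembly chaperones, Psmd9 had the highest difference of all members, 0.47 log2 (SE 0.17, limma adjusted p = 0.0949). It read 8.04, 7.70 and 7.86 in KO, against 7.24, 7.21 and 7.74 in WT, and only WT replicate 3 reached the KO values. Leaving out that array, the highest of the WT arrays, can only enlarge the difference, which then was 0.64 and passed (adjusted p = 0.0241). Over the fits without 1 array the difference lay between 0.38 and 0.64 (limma adjusted p = 0.0241 to 0.256). Its other tested probe set differed by -0.20, and with the mean of both the difference was 0.14 (adjusted p = 0.598). Psmd10 differed by 0.33 and Psmd5 by -0.41, and neither passed (adjusted p = 0.165 and 0.171).

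Many subunits shared an order of the livers within a genotype, but in WT the order was not the same for the core and the regulatory particle. Among the KO arrays, replicate 3 held the highest value of 29 of the 34 genes, where the same array held the highest value of 36.9% of all genes tested, and replicate 1 held the lowest value of 21 (37.9% of all genes). Among the WT arrays, replicate 3 was the highest for 23 of 34 (36.9% of all genes) and replicate 1 the lowest for 19 (35.5%). KO replicate 3 was the highest for 12 of 14 core and 15 of 17 regulatory genes. WT replicate 3, in contrast, was the highest for 15 regulatory but 5 core genes, and WT replicate 2 for 0 regulatory and 9 core genes. WT replicate 1 was the lowest for 11 core and 7 regulatory genes, and WT replicate 2 for 1 core and 8 regulatory genes. The mean level over the 34 genes was 8.77, 8.81 and 9.03 log2 in KO and 8.82, 8.94 and 9.05 in WT, so that the genotypes overlapped. The KO array with the highest subunit level had the lowest 3′ minus 5′ value of Actb among KO arrays, 1.12, and the WT array with the lowest subunit level had the highest among WT arrays, 0.97. The WT array with the highest level over the 34 genes, replicate 3, did not have the lowest value, which was 0.81 in WT replicate 2. By core genes alone, the mean level was 9.69 in WT replicate 2 and 9.68 in WT replicate 3. The part of transcript integrity in this order was not tested. Leaving out KO replicate 3 moved the core and regulatory medians to -0.16 and -0.22 log2, and leaving out KO replicate 1 moved them to -0.01 and 0.01.

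**Figure D3:**
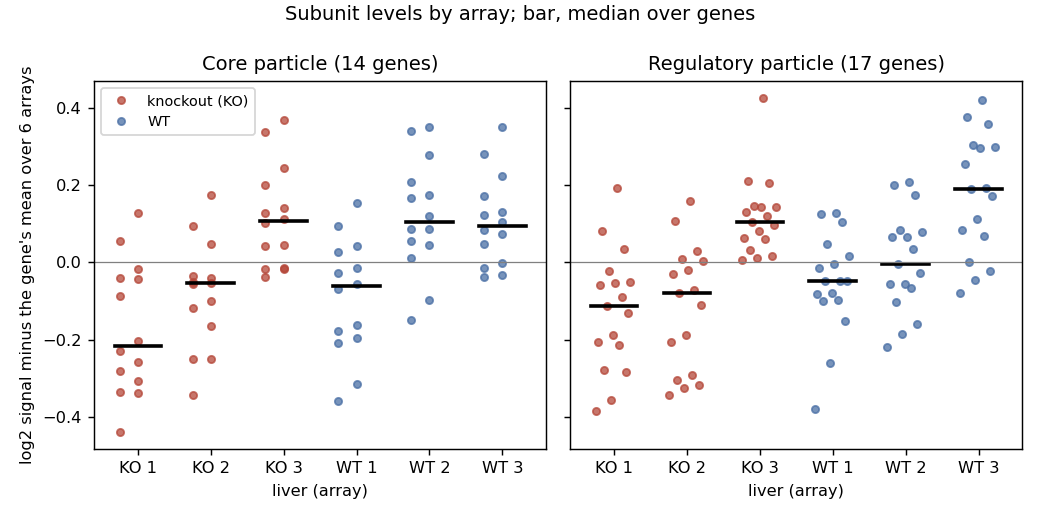
Log2 signal of each subunit gene minus its mean over the 6 arrays, for the 14 core and the 17 regulatory particle genes, with KO arrays left of WT arrays and bars at the median over genes. The core medians run from -0.22 in KO 1 to 0.11 in KO 3, and from -0.06 in WT 1 to 0.10 in WT 2. Their means over the arrays of a genotype differ by -0.10.

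Probe sets of the same gene often disagreed. Of the 74 probe sets, 59 were tested and 15 were too dim, with means of 2.07 to 3.46 log2. Among the 59, none was called higher and 2 lower, or 3.39% in all, against 17.9% of all probe sets tested (10.1% higher and 7.82% lower). At an unadjusted p under 0.05 the limma fit had 5 of the 59 higher and 7 lower, against 34.1% of all probe sets tested in either direction. The dimmer of the 2 read Psmd11, the lid subunit that clamps the lid to the core. This probe set read 8.05, 8.14 and 8.35 log2 in KO and 8.64, 8.65 and 8.58 in WT (-0.45, SE 0.12, limma adjusted p = 0.0375). The brightest probe set of Psmd11, of a kind that also reads related transcripts, was at 9.56, 9.75 and 9.84 in KO and 9.80, 9.78 and 9.75 in WT, with a difference of -0.06 (adjusted p = 0.748), so the gene is not counted as changed. The other 4 tested probe sets of Psmd11 differed by -0.50, -0.23, 0.08 and 0.12. The first had a limma p of 0.031 (adjusted 0.108), and the second had all KO values below WT.

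In 17 genes more than 1 probe set was tested, which gave 25 pairs of a dimmer probe set and the brightest. The 2 differences had opposite signs in 15 of the 25 pairs, in 11 genes, compared with 33.3% of 9491 such pairs over all genes. Signs turn easily on small values, as with -0.0047 for a dimmer probe set of Psma6. Only 2.94% of subunit genes were called, against 18.2% of all genes, so these shares do not compare like with like. In Psmb3, the dimmer probe set read 8.57, 8.76 and 9.07 log2 in KO and 9.10, 9.19 and 9.26 in WT, all KO below WT. The brightest read 9.76, 9.88 and 9.80 in KO and 9.51, 9.61 and 9.67 in WT, all KO above WT. Psma3 showed the reverse: its dimmer probe set, at 4.33 to 4.68 in KO and 4.02 to 4.32 in WT, lay above WT, and the brightest below. Such a split without overlap on both sides was seen in 2 of the 25 pairs and in 2.88% of pairs over all genes.

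The gap between probe sets of a gene does not depend on the scale of the array. For Psmb3 it was -1.19, -1.12 and -0.73 log2 in KO and -0.40, -0.42 and -0.40 in WT, and for Psmc4 -0.80, -0.71 and -0.82 against -0.14, -0.17 and -0.29. In both, all KO gaps lay below all WT gaps (exact permutation test, two-sided, p = 0.1, unadjusted). Psma3, Psma6, Psma7, Psmd4, Psmd6, Psmd9 and Psmd11 also had at least 1 gap that did not overlap between genotypes. In all, 11 of the 25 pairs had such a gap, or 44%, near the 39.2% of pairs over all genes. The positions of these probe sets along the transcripts were not used here, and the 3′ minus 5′ values, higher in KO by 0.45 log2 for Actb, moved with genotype too. Their part was not tested.

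**Figure D4:**
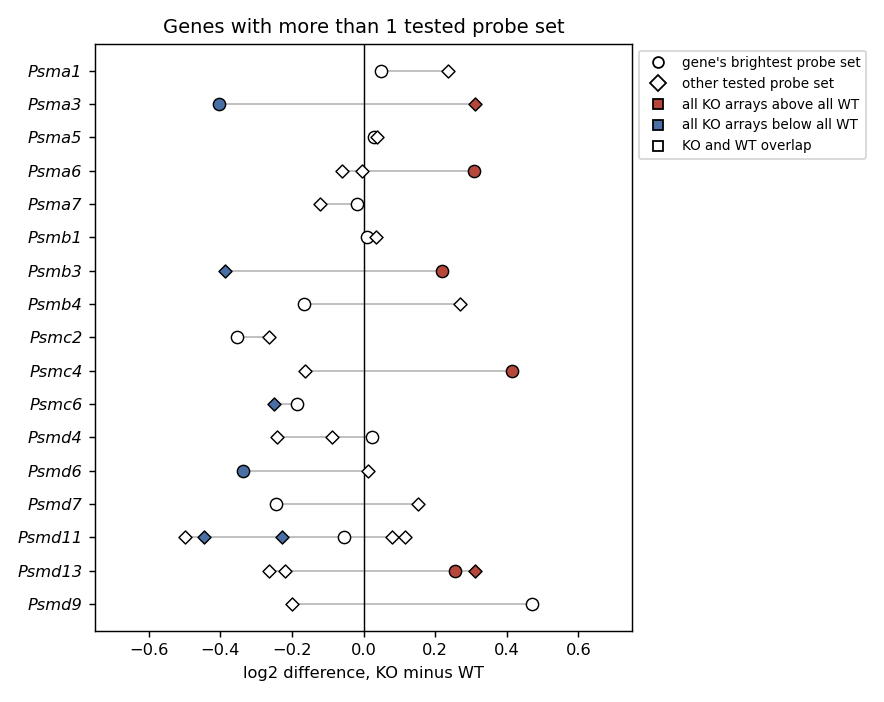
Log2 difference, KO minus WT, of every tested probe set in the 17 genes with more than 1, with circles for the brightest probe set and diamonds for others, and colours for values that do not overlap between genotypes. Psma3 and Psmb3 have a coloured point on each side of 0.

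Genes that work with the proteasome gave few calls. Of 8 tested genes for other proteasome-bound proteins, 2 rose and none fell (median 0.10 log2), where 10.3% of all genes rose. Sem1, a small subunit of the lid, read 9.21, 8.998 and 9.03 log2 in KO, against 8.397, 8.52 and 8.73 in WT, and rose by 0.53 (SE 0.13, limma adjusted p = 0.0254). Its other probe set rose by 0.47 (adjusted p = 0.0272). Zfand5, a zinc finger protein that binds ubiquitin and the proteasome, read 9.23, 9.22 and 9.16 in KO and 8.84, 8.81 and 8.85 in WT, and rose by 0.37 (SE 0.10, adjusted p = 0.0385). A second probe set of Zfand5 rose by 0.64, and 2 more differed by -0.13 and -0.12 without passing. Sem1 lost its call without KO replicate 1 (adjusted p = 0.0934) or 2 (0.0652) or WT replicate 1 (0.0793) or 2 (0.0711). Zfand5 lost it without any 1 of the 6 arrays (0.0592 to 0.119), without a filter on dim probe sets (0.0598) and with the mean of its probe sets (0.188). With arrays centred on the poly-A controls both lay below 0, at -0.22 and -0.38 log2.

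No member of the remaining lists passed. These were the chaperones that assemble the core (5 tested), the activators and inhibitor (4), the ubiquitin genes and shuttles that deliver substrates (6), and NRF1 with its activating proteins (4), with medians of -0.09, 0.01, -0.12 and 0.19 log2. Pomp, which matures the core, read 9.88 ± 0.07 in KO and 9.89 ± 0.07 in WT (SD, n = 3 each). All 5 chaperones that assemble the core lay below 0, from -0.52 to -0.0041 log2, where 55.6% of all genes tested did. The smallest limma adjusted p among these 5 was 0.0646, and 1 had all KO values below WT. Nfe2l1, the gene of NRF1 itself, read 7.15, 7.33 and 7.08 in KO and 6.88, 6.77 and 6.87 in WT, without overlap (0.35, SE 0.12, limma adjusted p = 0.0816). It had the highest difference of its list, whose lowest was -0.16. Another gene of this list did not overlap either, with all KO values below WT, where 40.8% of all genes tested did not overlap. At an unadjusted p under 0.05 these 4 lists held 2, 0, 2 and 1 genes in that order, against 34.1% of all genes tested.

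The direction of small differences depended on the scale of the arrays. With arrays centred on the poly-A controls, 29 of the 34 subunit genes were lower in KO and none higher, or 85.3%, but so were 75.4% of all genes tested, whose median moved to -0.80 log2. The core median was then -0.83 and the regulatory median -0.85. Centring shifts all genes of an array alike, so the medians relative to that of all genes, -0.03 for the core and -0.05 for the regulatory particle, are the same by construction on each such scale. With arrays centred on hepatocyte markers 3 subunit genes were higher, Psma6, Psmc4 and Psmd9, and none lower, and the median of all genes was 0.05.

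**Figure D5:**
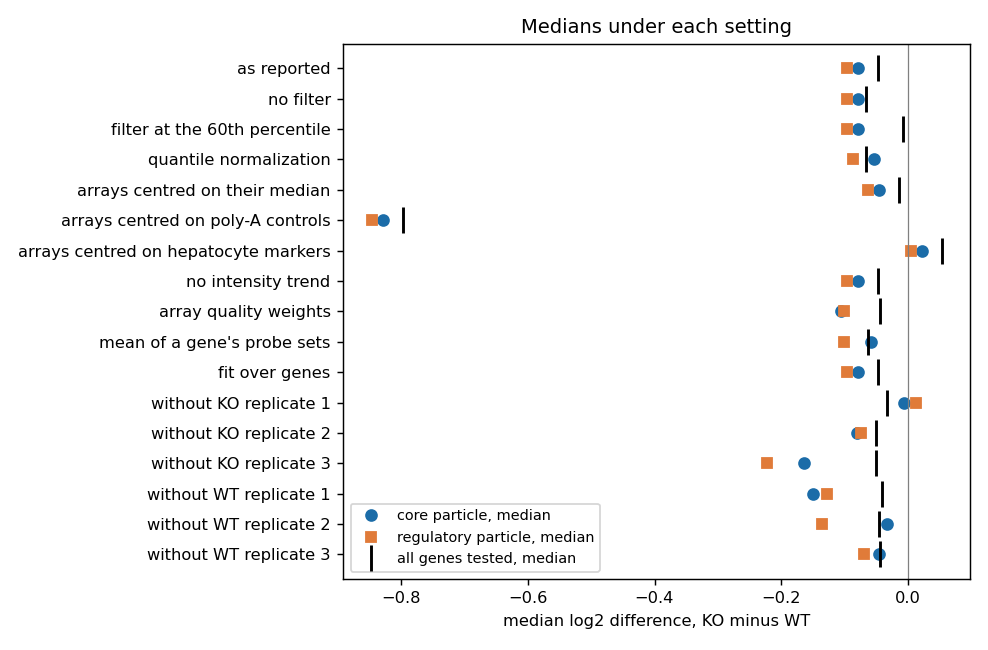
Median log2 difference, KO minus WT, over the core genes (circles), the regulatory particle genes (squares) and all genes tested (vertical ticks) as reported and under each of 16 alternative settings. Centring on poly-A controls shifts all 3 medians together, to between -0.85 and -0.80.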

How the data were processed

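The deposited values are log2 signals, 1 per probe set and array, made by the authors. MAS5 is the only tool in the submitters' processing notes, without a version or role. How signals were corrected, scaled and summarised is not stated there, and the log2 scale was settled from the values (1.68 to 14.3). No detection calls were used. Each sample has a number of its own in the labels, which do not say that it is an animal; p-values measure the spread between these samples, which may be technical. Replicate numbers here only name samples.

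Control probe sets (64) and those with a mean over the 6 arrays in the lowest 40 percent (under 3.58 log2) were removed, and 27022 remained. The platform annotation gives 34945 probe sets other than controls exactly 1 symbol, of which 34741 matched RefSeq by gene identifier. A gene was read by its brightest tested probe set (13370 genes). Genotypes were compared with limma 3.58.1 (R 4.3.3), using lmFit, then eBayes with its trend option, two-sided and without covariates, on the log2 values as deposited, and Benjamini-Hochberg adjusted over all 27022 probe sets. "Rose" and "fell" mean an adjusted p under 0.05. The fit was tested on simulated data. The number of arrays, 3 per genotype, limits the precision.

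The members and gene lists were chosen with earlier results of these data known. Genes described in detail are the catalytic subunits, every called gene, and per role the 2 smallest and the largest adjusted p; other members and named genes were added after their values were seen. Probe set names ending in s_at or x_at mark probes that can read related transcripts; the brightest probe sets of Psmd11 and Psma6 are of these kinds. Alternatives were other filters, normalizations, centrings, weights and probe set rules, and leaving out each array.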

Additional observations from a re-analysis of the deposited data

How the results depend on the processing

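The number of arrays, 3 per genotype, limits the precision: the median SE of a subunit's difference was 0.14 log2. No paired analysis was possible because the labels give no replicate numbers that the genotypes share. Count of subunit genes called lower, 1 as reported, was 0 with arrays centred on their median or on hepatocyte markers, 2 with array quality weights and 29 with arrays centred on poly-A controls (13 core, 15 regulatory); the core count was likewise 0, 0 and 2. The count called higher, 0 as reported, was 1 with quantile normalization (a core gene), 1 with array weights and 3 with hepatocyte centring (1 core, 1 regulatory). The core and regulatory medians, -0.08 and -0.10 log2, were -0.83 and -0.85 with poly-A centring, a shift that its construction gives every gene. In the lists of genes that work with the proteasome, 2 genes higher became 1 without a filter or with the mean of probe sets, 0 with poly-A centring and 4 with array weights, and 0 lower became 2 with quantile normalization, 2 with array weights and 21 with poly-A centring. The cause of the other moves was not tested. Leaving out 1 array gave 0 to 2 subunit genes lower, all in the core, 0 to 1 higher, and 0 to 3 higher and 0 lower in the other lists, with core medians of -0.16 to -0.0062 and regulatory medians of -0.22 to 0.013.

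Some signs turned. With poly-A centring Psma5, Psma6, Psmb1 and Psmb3 were at -0.72, -0.44, -0.74 and -0.53 log2, Psmc4, Psmc5, Psmd4 and Psmd13 at -0.33, -0.70, -0.72 and -0.49, and Psmd9, Psmd10, Sem1 and Zfand5 at -0.28, -0.42, -0.22 and -0.38. With array quality weights Psma5 was at -0.084 and Psmb1 at -0.0024. With the mean of probe sets Psmb3 was at -0.083 and Psmd4 at -0.10. Psmd2 was at 0.0045 with median centring and 0.072 with hepatocyte centring, and Psmd11 at 0.0049 with quantile normalization and 0.045 with hepatocyte centring. Leaving out 1 array gave -0.14 to 0.17 for Psma5, -0.013 to 0.034 for Psmb1, -0.049 to 0.14 for Psmc5, -0.069 to 0.030 for Psmd2, -0.020 to 0.071 for Psmd4 and -0.12 to 0.024 for Psmd11. Of 368 comparisons of a named gene with an alternative setting, 301 kept direction and side of the threshold, 32 turned sign, 17 came to pass and 18 no longer passed. Settings that change only the filter, the trend or the genes fitted cannot change a gene's difference. Part of the 301 thus kept direction by construction.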
